A study of Homo sapiens with 6 samples.

Results

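The RNA interference and microRNA machinery was examined as 10 genes chosen by name: *DROSHA*, *DGCR8*, *XPO5*, *DICER1*, *TARBP2*, *AGO1*, *AGO2*, *AGO3*, *TNRC6A* and *TNRC6B*. All 10 were found among the 63677 genes of the count table, and all 10 were among the 12507 genes that passed the filter on low counts. The libraries are labelled as LoVo, an established human colorectal cancer cell line. One group of 3 libraries was made from cells given a combination of both siRNAs against the long non-coding RNA *SNHG15*, and the other group of 3, called scramble, from cells given a negative control siRNA. Both groups were transfected with siRNA at 25 nM with a lipid reagent and collected after 48 h. Every library thus came from cells given a synthetic substrate of this machinery, and no untransfected cells were analysed here. Because both *SNHG15* siRNAs were given together and nothing else was compared, loss of *SNHG15* and the sequences of these particular siRNAs cannot be told apart in any difference below.

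In this pathway the Microprocessor, formed by the nuclease *DROSHA* and its RNA-binding partner *DGCR8*, cuts the primary microRNA transcript in the nucleus. Exportin 5 (*XPO5*) carries the released hairpin to the cytoplasm, where *DICER1* with its partner *TARBP2* cuts it into a short duplex. One strand of that duplex is kept by an Argonaute protein, which finds messenger RNAs mainly through bases 2 to 8 of the strand, the seed. The GW182 proteins, encoded by *TNRC6A*, *TNRC6B* and *TNRC6C*, bind Argonaute and recruit the deadenylases that shorten the poly(A) tail of the target. A synthetic siRNA enters at the Argonaute step, and *AGO2* is the Argonaute best known for cutting a fully matched target. The libraries were made with a kit for messenger RNA, so the values below are transcript levels of the machinery genes. Mature microRNAs, proteins and the loading of the siRNAs were not measured.

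The libraries held 3446922 to 10256710 counts, with scramble replicate 3 the shallowest. *SNHG15* itself was at 290, 277 and 261 CPM (counts relative to the TMM-scaled library size) in scramble replicates 1 to 3 and at 77.2, 83.1 and 87.2 CPM in the siRNA libraries, which matched the labels, a log2 fold change of -1.74 (SE 0.12, adjusted p = 2.62e-05 in edgeR). As a check of the labelled cell type, 4 of 9 colorectal epithelial markers (*CDX2*, *CDH1*, *KRT8* and *KRT18*) were detected, and 5 (*EPCAM*, *KRT20*, *VIL1*, *CEACAM5* and *GPA33*) had 3 or fewer counts in every library. Whether these 5 genes were silent in the cells or lost in the annotation or counting was not tested. Nor was it tested whether the cells differ from the label. The markers therefore do not settle the label, and a level near 0 in these counts need not mean absent transcript. The summed level of the 9 was 102 to 110 CPM in scramble and 106 to 117 CPM in siRNA libraries. That sum covers unlike members, since *CDH1* was at 7.52 ± 1.05 in scramble and 4.43 ± 1.19 CPM in siRNA libraries (SD, n = 3 each), without overlap (log2 fold change -0.76, adjusted p = 0.0945 in edgeR), and *KRT8* at 46.4 ± 4.40 and 55.4 ± 11.9 CPM. Of 5 markers of other cell types, 4 had 3 or fewer counts in every library and *COL1A1* reached 9 counts, for a summed level of 0.234 to 0.605 CPM in scramble and 0.575 to 1.39 CPM in siRNA libraries. The part of these markers in the results was not tested.

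Among the 10 genes, the GW182 gene *TNRC6B* rose in the cells given *SNHG15* siRNA, by 1.48-fold (95% interval 1.19 to 1.84), and the other 9 did not pass the test. That is 1 of 10 genes called, 1 higher and 0 lower, where 671 of all 12507 genes tested were called (5.36%), 392 higher (3.13%) and 279 lower (2.23%). With upper-quartile factors in place of TMM, 515 of 745 called genes were higher. Among the 6373 genes whose mean level lay within the range of the machinery genes, 14.9 to 165 CPM, 361 (5.66%) were called, so a count of 1 in 10 does not set the machinery apart. DESeq2, run on the 23675 genes with any counts, also called 1 of the 10, again with 0 lower. It called 761 genes in all, 381 higher and 380 lower, which is not a share of the 12507. Before adjustment, 3 of 10 had a p under 0.05 (*TNRC6B* higher, *DROSHA* and *DICER1* lower), where 22.5% of all genes did. The libraries of the 2 groups did not overlap in 6 of 10 genes, 3 with higher and 3 with lower siRNA libraries, where 28.8% of all genes were separated in this way. Fold changes were split evenly, with 5 positive and 5 negative, a median log2 fold change of -0.02 against 0.00 for all genes, and a range from -0.38 to 0.57.

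Because siRNA-loaded Argonaute can also act on messenger RNAs that pair with the seed alone, the machinery genes were searched for sequence that pairs with bases 2 to 8 of the antisense strand of each siRNA. Those 7-base matches are ATGTTCA for siRNA 1, CACAGCA for siRNA 2 and CGACTGG for the control siRNA, read on the strand of the transcript only. The longest annotated protein-coding 3′ UTR of each gene was searched. *TNRC6B*, the gene that rose, has a 3′ UTR of 12567 bases with 0 of the 3 matches. Of 104 tested genes whose 3′ UTR is 0.8 to 1.25 times as long, 71.2% hold the siRNA 1 match and 65.4% the siRNA 2 match. No match was found in *DROSHA*, *XPO5*, *TARBP2* or *TNRC6A* either. The siRNA 1 match is present in 2 of the 10 genes and the siRNA 2 match in 5, where 17.1% and 18.7% of 10499 tested genes of any length hold them. Those shares are low for the long 3′ UTRs among the 10. Of genes of like length, the siRNA 1 match is held by 62.8% for *AGO1*, 70.3% for *AGO2* and 89.2% for *AGO3*, and the siRNA 2 match by 61%, 66.9% and 81.1%. For *DICER1* they are 34.3% and 33.8%, and for *DGCR8* 15.5% and 17.9%, so nothing particular to the machinery is read from these counts. The control match is present in 1 of the 10, against 1.76% of all genes. The genes with a match have 3′ UTRs of 10925 bases (*AGO1*), 11888 bases (*AGO2*), 16755 bases (*AGO3*), 4270 bases (*DICER1*) and 1764 bases (*DGCR8*). A match is a description of sequence and was not tested as a site.

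The matches are shown with 11 bases on each side, 5′ to 3′ in the direction of the transcript, on GRCh37, with the 7 matching bases in capitals, so that each can be set beside the level of its gene below. The first 5 lines and the last are matches to siRNA 2, the sixth is the match to the control siRNA and the seventh the match to siRNA 1.
*AGO1*, chr1:36392293-36392321, plus strand: cttagaaggcaCACAGCAtgacagaagta
*AGO1*, chr1:36393395-36393423, plus strand: tttcccaggctCACAGCAagtaagagagg
*AGO3*, chr1:36521514-36521542, plus strand: tcatcaaggaaCACAGCAtcattatgcaa
*DGCR8*, chr22:20097794-20097822, plus strand: agccatggccaCACAGCAcacatgtggag
*DGCR8*, chr22:20099181-20099209, plus strand: ccaggcaccacCACAGCAggtgctgccat
*DGCR8*, chr22:20098668-20098696, plus strand: agcttgcttctCGACTGGtggcccctatg
*DICER1*, chr14:95554555-95554583, minus strand: ttaatactaagATGTTCAaacttagacat
*DICER1*, chr14:95555737-95555765, minus strand: aagaagcaaaaCACAGCAcctttaccctt
Among the genes with a siRNA match, *AGO1* and *DICER1* had lower and *AGO3* higher levels in all 3 siRNA libraries. The groups overlapped for *AGO2* and *DGCR8*, and none of these genes passed the test. Among those without a siRNA match, *DROSHA* was lower and *TARBP2* and *TNRC6B* higher in all 3 siRNA libraries, and the groups overlapped for *XPO5* and *TNRC6A*. Of all genes tested, 28.8% were separated in one direction or the other. A relation between match and level was not tested. The matches of *AGO2* are counted above and not shown.

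**Figure D1:**
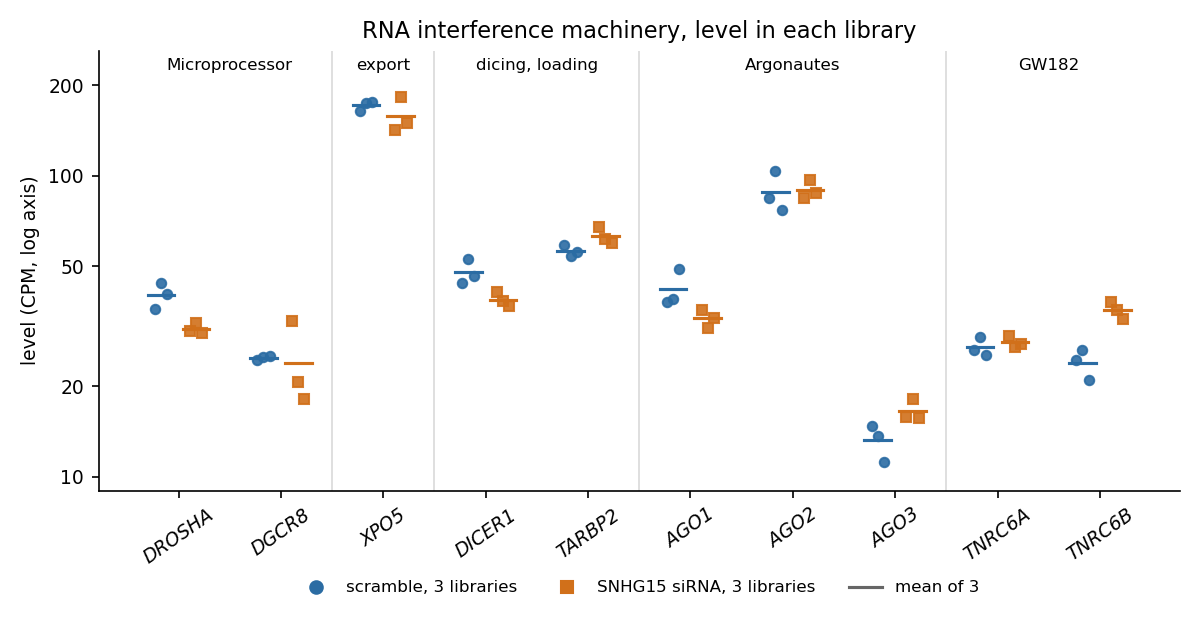
Level of each of the 10 machinery genes in each library (CPM on a log axis), with points for the 3 scramble and 3 *SNHG15* siRNA libraries and a bar at each group mean. *XPO5* was highest and *AGO3* lowest, and the *TNRC6B* points were fully separated, at 20.9 to 26.3 CPM in scramble and 33.5 to 38.1 CPM in siRNA libraries.

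*DROSHA* (ENSG00000113360, chr5:31400601-31532303, minus strand), the nuclease that makes the first cut, was at 36.1, 44.1 and 40.5 CPM in scramble replicates 1 to 3 and at 30.6, 32.5 and 30.0 CPM in siRNA replicates 1 to 3. All 3 siRNA libraries lay below all 3 scramble libraries, and 28.8% of all genes were separated in one direction or the other. The means were 40.2 ± 3.99 and 31.0 ± 1.32 CPM (SD, n = 3 each), and the log2 fold change was -0.38 (SE 0.14, 95% interval -0.68 to -0.07), with an adjusted p of 0.135, so the difference did not pass the test over all genes. In bulk cultures, less transcript in each cell and fewer cells with the transcript cannot be told apart.

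*DGCR8* (ENSG00000128191, chr22:20067744-20099400, plus strand), which recognises the hairpin for *DROSHA*, was at 24.5, 25.0 and 25.1 CPM in scramble libraries and at 32.9, 20.7 and 18.2 CPM in siRNA libraries. The scramble libraries were nearly equal, while siRNA replicate 1 stood above and the other 2 siRNA libraries below all of them. The means of 24.9 ± 0.319 and 23.9 ± 7.84 CPM (SD, n = 3 each) gave a log2 fold change of -0.06 (SE 0.20, 95% interval -0.49 to 0.38). That value rests on siRNA replicate 1, since it was -0.36 without that library (adjusted p = 0.153 in edgeR), and 0.04 or 0.11 without siRNA replicate 2 or 3. The largest SE of the 10 genes, 0.20, was that of *DGCR8*.

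*DGCR8* messenger RNA is also known as a substrate of the Microprocessor, which cuts hairpins near its 5′ end. The annotation places 2 microRNA genes, *MIR3618* and *MIR1306*, inside a *DGCR8* exon, and the mature sequences (RefSeq, placed by exact match on GRCh37) are shown with the seed, bases 2 to 8, in capitals.
hsa-miR-3618, chr22:20073320-20073341, plus strand: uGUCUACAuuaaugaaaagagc
hsa-miR-1306-5p, chr22:20073595-20073616, plus strand: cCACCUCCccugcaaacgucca
hsa-miR-1306-3p, chr22:20073635-20073652, plus strand: aCGUUGGCucugguggug
The exons of *DGCR8* share 88 bases with *MIR3618* and 85 with *MIR1306*, and both microRNA genes were listed at 0 counts in all 6 libraries. A further 526 bases, 7.18% of the exon length of *DGCR8*, overlap an annotated long non-coding RNA. How the counting treated reads in overlapping genes is not given in the sources used here.

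*XPO5* (ENSG00000124571, chr6:43490072-43543775, minus strand), the export receptor for precursor hairpins, was the most abundant of the 10, at 164, 175 and 176 CPM in scramble libraries and at 142, 183 and 150 CPM in siRNA libraries. The groups overlapped because siRNA replicate 2 was the highest of the 6 libraries. The means were 172 ± 6.55 and 158 ± 21.9 CPM (SD, n = 3 each), and the log2 fold change was -0.12 (SE 0.13, 95% interval -0.40 to 0.16). Of its exon length, 348 bases (4.1%) overlap *POLR1C* on the opposite strand.

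*DICER1* (ENSG00000100697, chr14:95552565-95624347, minus strand), which cuts the precursor into the duplex, was at 43.9, 52.9 and 46.6 CPM in scramble libraries and at 41.2, 38.3 and 36.8 CPM in siRNA libraries. The siRNA libraries were again all below the scramble libraries, although the gap between siRNA replicate 1 and scramble replicate 1 was small. The means of 47.8 ± 4.61 and 38.7 ± 2.24 CPM (SD, n = 3 each) gave a log2 fold change of -0.31 (SE 0.14, 95% interval -0.60 to -0.01) and an adjusted p of 0.206. Its double-stranded RNA-binding partner *TARBP2* (ENSG00000139546, chr12:53894705-53900215, plus strand) was at 58.7, 54.0 and 55.9 CPM in scramble libraries and at 67.4, 61.6 and 60.0 CPM in siRNA libraries. For *TARBP2* the siRNA libraries were all the higher ones, with a log2 fold change of 0.16 (SE 0.13, 95% interval -0.11 to 0.43) and an adjusted p of 0.469. Of its exon length, 541 bases (13.2%) overlap a gene on the opposite strand that had 5 to 13 counts per library.

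None of the Argonautes passed the test. *AGO1* (ENSG00000092847, chr1:36335409-36396133, plus strand) was at 38.1, 39.0 and 49.0 CPM in scramble libraries and at 35.9, 31.1 and 33.7 CPM in siRNA libraries, all lower, with scramble replicate 3 standing above the other scramble libraries. Its log2 fold change was -0.31 (SE 0.15, 95% interval -0.63 to 0.01) with an adjusted p of 0.236. *AGO3* (ENSG00000126070, chr1:36396319-36538101, plus strand), the next gene on the same strand, was at 14.8, 13.7 and 11.2 CPM in scramble libraries and at 15.8, 18.1 and 15.7 CPM in siRNA libraries, all higher. Its log2 fold change was 0.30 (SE 0.17, 95% interval -0.06 to 0.65) with an adjusted p of 0.311, and with 37 counts in scramble replicate 3 it had the lowest count of the 10 genes in any library. The difference between *AGO1* and *AGO3* in response was not tested.

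*AGO2* (ENSG00000123908, chr8:141530255-141645732, minus strand), the Argonaute known for slicing a matched target, was at 84.3, 104 and 77.1 CPM in scramble libraries and at 84.3, 96.7 and 87.4 CPM in siRNA libraries. The siRNA libraries all fell inside the scramble range, with means of 88.5 ± 14.0 and 89.4 ± 6.44 CPM (SD, n = 3 each). The fold change was 1.01, with a 95% interval of 0.818 to 1.24 and an adjusted p of 0.982 in edgeR. The sign turned with the setting, from -0.08 to 0.15 on the log2 scale when 1 library was left out. The remaining Argonaute, *AGO4* (ENSG00000134698, chr1:36273617-36323491), lies before *AGO1* on the same strand and was not one of the 10. It was at 10.9 to 12.3 CPM in scramble libraries and at 12.5 to 14.4 CPM in siRNA libraries, without overlap, a log2 fold change of 0.20 (SE 0.16, 95% interval -0.16 to 0.55).

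*TNRC6B* (ENSG00000100354, chr22:40440821-40731812, plus strand), a GW182 scaffold that links Argonaute to the deadenylases, had 209, 264 and 69 counts in scramble replicates 1 to 3 and 275, 249 and 285 counts in siRNA replicates 1 to 3. Scaled for depth these were 24.5, 26.3 and 20.9 CPM in scramble libraries and 38.1, 35.8 and 33.5 CPM in siRNA libraries. Every siRNA library was above every scramble library, and the means were 23.9 ± 2.75 and 35.8 ± 2.32 CPM (SD, n = 3 each). The log2 fold change was 0.57 (SE 0.15, 95% interval 0.25 to 0.88), with an adjusted p of 0.0401 in edgeR's quasi-likelihood test. By raw p the gene ranked 573 among the 671 called, so it lay near the threshold. The direction held under every setting run, with 0.53 to 0.63 in 9 alternatives that kept all 6 libraries and 0.49 to 0.65 when 1 library was left out. The call did not hold throughout: it was kept in 7 of the 9 alternatives (adjusted p from 0.0232 to 0.0579), and lost without scramble replicate 1, 2 or 3 (0.134, 0.0993 and 0.135) or siRNA replicate 2 (0.110).

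*TNRC6A* (ENSG00000090905, chr16:24621530-24838953, plus strand), the founding GW182 gene, was at 26.4, 29.1 and 25.4 CPM in scramble libraries and at 29.3, 27.0 and 27.6 CPM in siRNA libraries. The groups overlapped, and the log2 fold change was 0.04 (SE 0.14, 95% interval -0.26 to 0.34). The third GW182 gene, *TNRC6C* (ENSG00000078687, chr17:75954785-76104903, plus strand), is outside the 10. It was at 12.9, 12.8 and 11.2 CPM in scramble libraries and at 5.68, 9.49 and 7.40 CPM in siRNA libraries. All 3 siRNA libraries were lower, with a log2 fold change of -0.73 (SE 0.21, 95% interval -1.18 to -0.28), larger in size than that of *TNRC6B* but with a wider SE. It did not pass the test (adjusted p = 0.0600 in edgeR), and its adjusted p ran from 0.0187 without the filter on low counts to 0.0873 over the alternatives with all libraries.

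**Figure D2:**
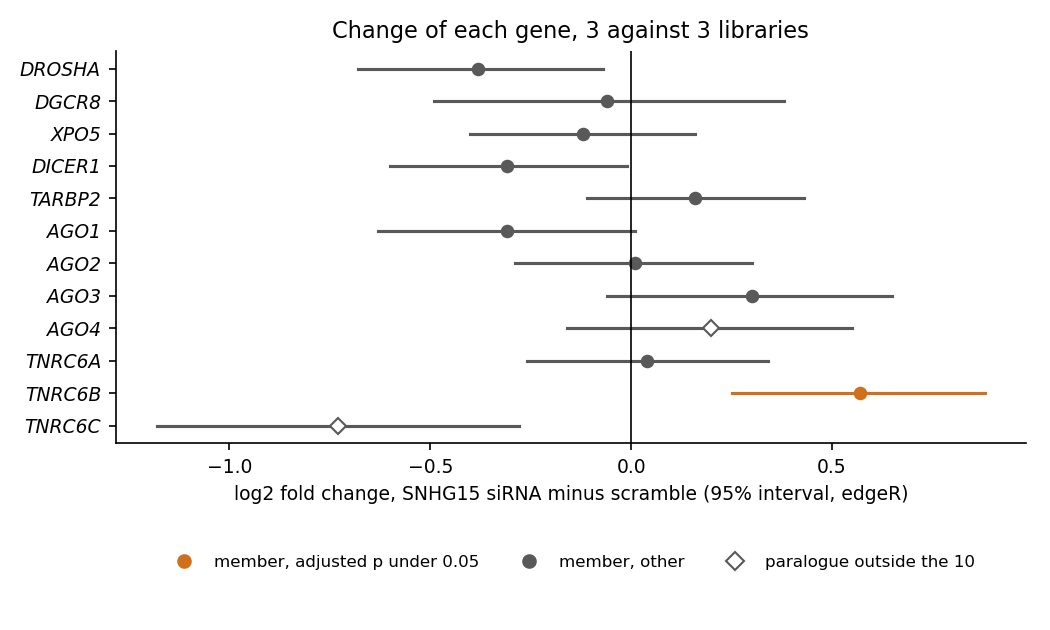
Log2 fold change of each of the 10 genes, *SNHG15* siRNA over scramble, as a point with its 95% interval, with *AGO4* and *TNRC6C* for comparison and 0 marked by a line. Orange marks an adjusted p under 0.05. Values run from -0.38 for *DROSHA* to 0.57 for *TNRC6B* among the 10, and *TNRC6B* is the only one of them past the adjusted p of 0.05.

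The 9 genes of the machinery that did not pass the test had adjusted p values from 0.135 to 0.982, and their intervals say how large a change could have been missed. For *DGCR8*, *XPO5*, *TARBP2*, *AGO2* and *TNRC6A*, 5 genes, the whole 95% interval lay within 1.5-fold in either direction. For *DROSHA*, *DICER1* and *AGO1* it extended past a 1.5-fold fall, and for *AGO3* past a 1.5-fold rise. The SE of the 10 genes was 0.13 to 0.20 on the log2 scale, with a median of 0.14 against 0.17 for all genes tested.

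Levels were compared between genes after division by the length of the union of their exons, as CPM per kilobase. In the scramble libraries *XPO5* stood highest at 20.3 ± 0.773, followed by *TARBP2* at 13.7 ± 0.578, *AGO2* at 5.58 ± 0.884, *DROSHA* at 5.17 ± 0.513 and *DGCR8* at 3.39 ± 0.0436 (SD, n = 3 each). Then came *AGO1* at 2.99 ± 0.431, *DICER1* at 2.16 ± 0.208, *TNRC6A* at 2.08 ± 0.150, *TNRC6B* at 1.19 ± 0.137 and *AGO3* at 0.625 ± 0.0870. The export receptor and the Dicer partner were thus the most abundant transcripts per length, and the processing enzyme *DICER1* was far below both. Among neighbours in this order, *AGO2* and *DROSHA*, *DGCR8* and *AGO1*, and *DICER1* and *TNRC6A* did not differ beyond their spread. The levels and their order depend on the length taken. With the longest transcript in place of all exons, *XPO5* was at 32.3, *TARBP2* at 30.3 and *DICER1* at 3.77 CPM per kilobase, so that *XPO5* and *TARBP2* nearly met. *DROSHA* at 7.43 passed *AGO2* at 6.06, and *AGO1* at 3.06 moved from rank 6 to rank 8. *XPO5*, *TARBP2*, *DGCR8*, *AGO4*, *TNRC6B*, *TNRC6C* and *AGO3* kept their ranks among all 12 genes of the families.

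**Figure D3:**
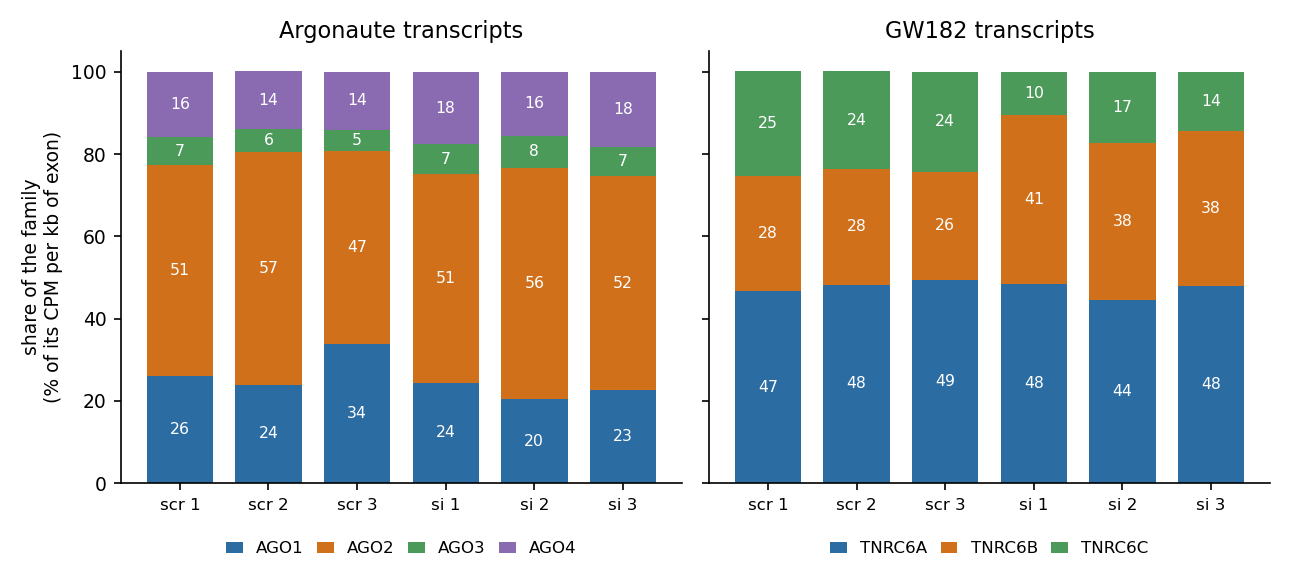
Share of each gene in the summed level per exon length of its family, in percent, for each of the 6 libraries (scr, scramble; si, *SNHG15* siRNA): the 4 Argonautes and the 3 GW182 genes, each column adding to 100%. *TNRC6B* takes 26.3 to 28.2% in scramble and 37.7 to 41.0% in siRNA libraries, *TNRC6C* is smaller in every siRNA library, and among the Argonautes *AGO3* is at 5.11 to 6.72% in scramble and 7.02 to 7.89% in siRNA libraries.

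Within the GW182 family the composition differed between groups, while the sum per exon length did not move beyond its spread. The summed level per exon length of *TNRC6A*, *TNRC6B* and *TNRC6C* was 4.33 ± 0.351 in scramble and 4.59 ± 0.136 CPM per kilobase in siRNA libraries (SD, n = 3 each). *TNRC6B* made up 28.1, 28.2 and 26.3% of it in scramble and 41.0, 38.2 and 37.7% in siRNA libraries. *TNRC6C* made up 25.4, 23.7 and 24.3% in scramble and 10.5, 17.4 and 14.3% in siRNA libraries. *TNRC6A* stayed the largest in every library, at 46.6 to 49.4% in scramble and 44.4 to 48.5% in siRNA libraries. Shares of one sum are tied to each other, and these shares were not tested. The sum and the shares depend on the length taken, and *TNRC6B*, with the longest exons at 19998 bases, weighs least per count. Before that division the mean went from 23.9 to 35.8 CPM for *TNRC6B*, from 12.3 to 7.53 CPM for *TNRC6C* and from 27.0 to 28.0 CPM for *TNRC6A*. A constant total is therefore not read from the sum.

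For the Argonautes the sum was 10.8 ± 0.722 in scramble and 10.6 ± 0.194 CPM per kilobase in siRNA libraries. *AGO2* held 51.6 ± 4.79% and 53.0 ± 2.84% of it, and *AGO1* held 27.9 ± 5.14% and 22.5 ± 2.02% (SD, n = 3 each). *AGO4*, at 14.7 ± 1.10% and 17.2 ± 1.47%, took more per exon length than *AGO3*, at 5.81 ± 0.828% and 7.35 ± 0.476%. That order comes with the division by exon length. Before it, *AGO3* was at 13.2 CPM in scramble and 16.6 CPM in siRNA libraries, and *AGO4* at 11.7 and 13.6 CPM. The PIWI genes, which serve the germline piRNA pathway, had at most 10 counts in any library and were not tested.

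Around the 10 genes, 63 others of the pathway were read from 5 lists by role, the paralogues included, and 54 of them were tested. In edgeR 2 of the 54 rose (3.7%) and 0 fell, with 26 positive and 28 negative fold changes and a median of -0.01, beside 5.36% called and a median of 0.00 over all genes. At an unadjusted p under 0.05 there were 11, 3 higher and 8 lower, where 22.5% of all genes had such a p. That share was not split by direction, so no lean is read from the 11. DESeq2 called 2 higher and 1 lower, where over all genes with any counts it called 381 higher and 380 lower. Among the 10 partners of the Microprocessor, export and Dicer, *DDX17*, an RNA helicase of the large Microprocessor complex, rose from 14.6, 12.2 and 18.7 CPM in scramble to 26.8, 25.5 and 23.4 CPM in siRNA libraries. Its log2 fold change was 0.77 (SE 0.17, 95% interval 0.40 to 1.14, adjusted p = 0.0227), held in 9 of 9 alternatives with all libraries and lost without scramble replicate 1 or 2 or siRNA replicate 2 (adjusted p of 0.102, 0.132 and 0.0666). The other 9 of that list did not pass, and the list's median was -0.10.

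Of 11 tested genes for tailing of microRNAs and turnover of Argonaute, 1 passed, where 5.36% of all genes did. *ZSWIM8*, a receptor of the ubiquitin ligase known for degrading Argonaute when a microRNA is bound to a highly complementary target, had 22, 23 and 6 counts in scramble and 69, 35 and 44 counts in siRNA libraries. It rose, with means of 2.23 ± 0.385 and 6.59 ± 2.58 CPM (SD, n = 3 each). The fold change fitted by edgeR was 2.83, with a 95% interval on the log2 scale of 0.82 to 2.18 (adjusted p = 0.0172). These are low counts with a wide spread among the siRNA libraries. The call held in 8 of 8 alternatives with all libraries that kept the gene, and was lost without scramble replicate 1, 2 or 3 (adjusted p of 0.0634, 0.0986 and 0.0609). The list's median was 0.04.

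No gene of the lists for Argonaute loading, for decay or for microRNA hosts was called by edgeR, where 5.36% of all genes were. For the 10 genes of Argonaute loading, mostly chaperones, the smallest p belonged to *HSP90AB1*, at 1495 ± 60.1 CPM in scramble and 1144 ± 85.2 CPM in siRNA libraries (SD, n = 3 each). Its log2 fold change was -0.39 with an adjusted p of 0.0662. It was the 1 gene of that list with an unadjusted p under 0.05, where 22.5% of all genes had such a p. DESeq2 called *HSP90AB1* (adjusted p = 0.0243, over the 9 alternatives with all libraries 0.0243 to 0.102). *HSP90AB1* has processed pseudogenes, and how reads shared with them were counted is not given in the sources used here. Of 21 tested genes for deadenylation, decapping and decay, 3 had an unadjusted p under 0.05, where 22.5% of all genes did. Of these 3, 1 was higher and 2 lower, and DESeq2 called 0 of the 21. The smallest p there was that of *LSM14A*, a decapping activator, with a log2 fold change of -0.39 and an adjusted p of 0.0835. The list's median was -0.12, with 8 positive and 13 negative, and *DCP1A* and *EDC4* of the decapping complex were listed at 0 in all 6 libraries. Of 5 tested microRNA host transcripts, 0 had an unadjusted p under 0.05, where 22.5% of all genes did, and DESeq2 called 0. *MIR17HG*, host of the miR-17-92 cluster, had the smallest p, at 8.01 ± 1.19 and 5.23 ± 2.07 CPM (SD, n = 3 each), with an adjusted p of 0.238.

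**Figure D4:**
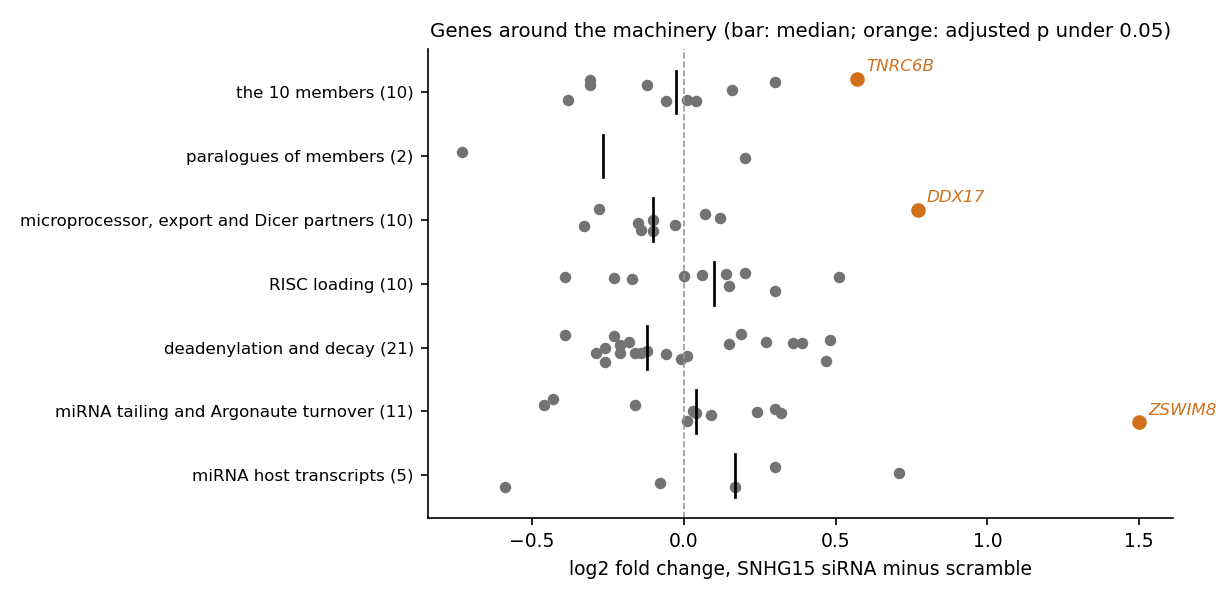
Log2 fold change of each tested gene, *SNHG15* siRNA over scramble, as 1 point per gene in rows for the 10 machinery genes and the other lists of the pathway, with a bar at each row's median and genes past the adjusted p of 0.05 in orange. The called genes are *TNRC6B*, *DDX17* and *ZSWIM8*, all to the right of 0, and the row medians lie between -0.26 and 0.17.

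*TNRC6B* has one of the longer exon lengths of the 10, 19998 bases, after *DICER1* with 22151 and *AGO3* with 21153. The fold changes of all genes were therefore read in 5 equal bins of exon length. The median log2 fold change was 0.02 in the bin of longest genes, which spans 8660 to 92625 bases, and between -0.02 and 0.00 in the other bins. In 5 bins of GC content the medians spread further, from -0.05 to 0.07. With the length offset the adjusted p of *TNRC6B* was 0.0502, just over the threshold, and with the GC offset it was 0.0232. *DICER1* and *AGO3*, of like length, were at -0.31 and 0.30, and neither was called. Whether exon length or GC content had a part in the rise of *TNRC6B* was not tested. The share of counts from mitochondrial genes was 1.462 to 1.84% in scramble and 1.554 to 1.85% in siRNA libraries.

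**Figure D5:**
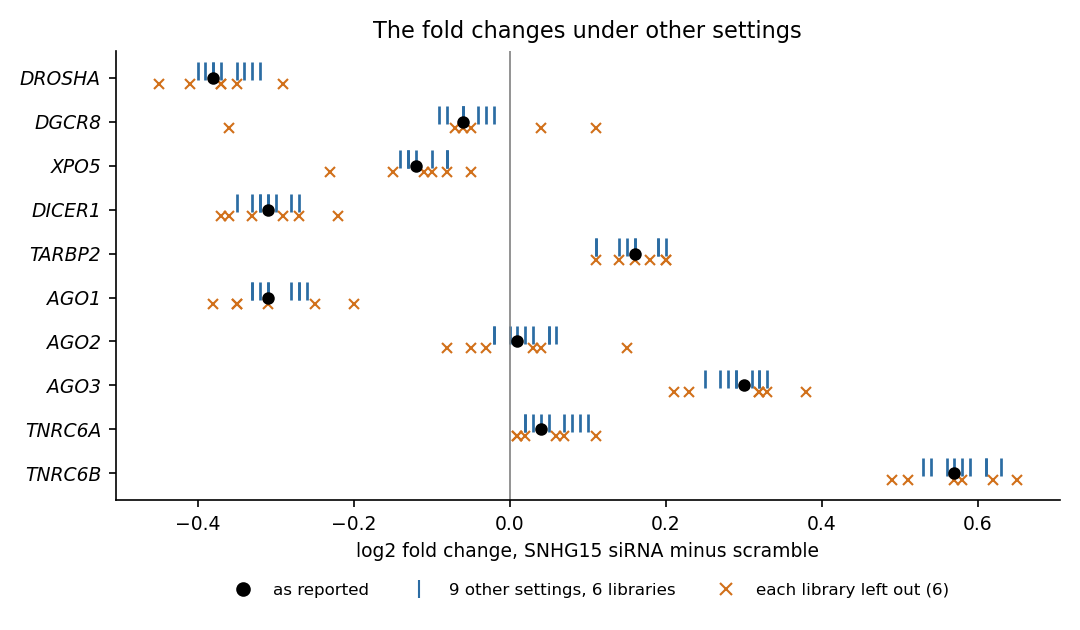
Log2 fold change of each of the 10 genes under the reported setting (black points), the 9 alternatives with all libraries (blue bars) and the 6 that leave out 1 library (orange crosses). *TNRC6B* stays between 0.49 and 0.65, *DGCR8* spreads from -0.36 to 0.11, and *AGO2* lies on both sides of 0.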

How the data were processed

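RNA was sequenced from cells labelled as LoVo in 3 scramble and 3 *SNHG15* siRNA libraries, described by the study as biological replicates. The authors deposited 1 table of raw counts per gene (63677 Ensembl genes). The study's methods name bowtie2 against hg19 and DESeq2, while the submitters' processing notes name STAR, featureCounts and hg19, and which aligner made the table was not resolved. The methods name a Maxwell 16 kit for the RNA and the labels TRIzol. Libraries were stranded, and the annotation, strand setting and treatment of shared reads are not given in the sources used here. No column was without a sample (0).

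The deposited counts were tested with edgeR 4.0.16 (R 4.3.3, quasi-likelihood test, filterByExpr with a minimum count of 10, TMM factors). P-values were adjusted by Benjamini-Hochberg over all 12507 genes tested, with a threshold of 0.05. SE is the size of the log2 fold change divided by the square root of F. Levels are CPM with TMM factors. Names, lengths, overlaps and 3′ UTRs came from GENCODE on GRCh37, and microRNAs from RefSeq. The steps were tested on simulated data. The genes and lists were chosen with earlier results of these data known. Named were *SNHG15*, the 10 genes, *AGO4*, *TNRC6C* and, per other list, the called genes or that with the smallest p, with *CDH1*, *KRT8*, *DCP1A*, *EDC4* and *MIR3618* and *MIR1306* added after their counts were seen. Alternatives were RLE and upper-quartile factors, DESeq2 1.42.0, no filter, 10 counts in every library, loess offsets (span 0.3) for exon length or for GC content, the replicate block with and without the latter, and leaving out each library. *PECAM1*, a marker planned for other cell types, had no matching name and was not used here.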

Additional observations from a re-analysis of the deposited data

How the results depend on the processing

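Of the 10 machinery genes, 8 kept their direction under every alternative run, and 136 of 150 values kept both direction and side of the threshold. One gene was called as reported, and 0 with the length offset or with the replicate block, where *TNRC6B* had a log2 fold change of 0.58 and an adjusted p of 0.0579. Leaving out each library gave 0 to 1. Libraries of like replicate number had correlations of -0.0659, 0.143 and -0.0348 in their deviations from the group means. Libraries of unlike number were not correlated for reference, so these values cannot settle whether the replicates were paired. *AGO2* (0.01 as reported) was -0.00 with DESeq2, -0.02 without a filter and with the length offset, and -0.08 to 0.15 on leaving out a library (-0.03 without scramble replicate 1, -0.05 without siRNA replicate 2). *DGCR8* was -0.36 to 0.11, with 0.04 without siRNA replicate 2. Other pathway genes called, 2 as reported, were 5 without a filter (3 higher, 2 lower), 1 with 10 counts in every library, where *ZSWIM8* was not tested, and 0 to 3 on leaving out a library. Over all genes 671 were called as reported, 1312 without a filter (685 higher), 543 with the replicate block, and 139 to 812 without a library, the lowest without scramble replicate 2 (199 without scramble replicate 1, 266 without scramble replicate 3, 356 without siRNA replicate 2). The shares of higher calls moved most with upper-quartile factors, 515 of 745. The cause of these shifts was not tested. Among the 10 genes the lowest count was 37, for *AGO3* in scramble replicate 3, and the SE of *AGO3* was 0.17, or 0.18 without that library.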
